A study of Arabidopsis thaliana with 12 samples.

Results

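The mitochondrial genes described here are all loci of the count tables whose identifier starts with ATMG, which are 152 of 36917 loci. RNA was sequenced in 12 libraries of 6 d old Arabidopsis thaliana plants grown in soil under continuous light, 6 of the genotype flu/ex1 and 6 of the genotype flu/ex1/ydl1. All plants, the flu/ex1 comparison group included, carried the flu and ex1 mutations and were placed in the dark for up to 4 h, and they were then lit for 0, 30 or 60 min. The title of the series asks whether YDL1 holds back the gene expression changes that singlet oxygen sets off. The comparison of the genotypes was taken over all light times, the unlit 0 min libraries included. It does not by itself test a response to light. The test of the difference between the genotypes in the change from 0 to 60 min bears more closely on that question. Since all plants carried the flu mutation, effects of light and of singlet oxygen cannot be told apart here. The light time printed in a deposited file's name and the one given by the sample's label differ for 8 of 12 libraries, whereas both give the same genotype. Libraries are therefore named here by genotype, file-name time and file-name replicate, with 2 libraries in each of 6 groups. With light times taken from the sample labels instead, 0 of the 52 mitochondrial loci tested passed in any comparison, so each call below on an ATMG locus rests on the file-name times. Label times were not run for the copies and nuclear genes named below. Whether the 2 libraries of a group are separate plants is not in the labels, so a p-value measures only the spread between samples.

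Plant mitochondria keep a small genome of their own that encodes core subunits of respiratory complexes I, III and IV and of ATP synthase, factors for cytochrome c maturation, ribosomal proteins and RNAs, and many open reading frames of unknown function. Most other mitochondrial proteins come from nuclear genes. The flu mutant accumulates a chlorophyll precursor in darkness that releases singlet oxygen in plastids on illumination, and EX1 is a plastid protein of the signalling that follows. In the Arabidopsis reference accession a large part of the mitochondrial genome also lies inserted in chromosome 2, so reads from either place can look alike. Mitochondrial transcripts are largely without stable poly(A) tails, and the labels name Illumina TruSeq without saying how RNA was selected, so levels relative to nuclear genes hold for these libraries only.

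Total counts ran from 7859611 to 11591060 per library, and ATMG loci took 22653 to 44742 of them, 0.285% to 0.388%. Plastid loci took 63.3% to 71.7%. The green tissue markers RBCS1A, CAB1 and RCA reached at least 3893, 15092 and 1010 counts per 1000000 nuclear counts (nuclear CPM) in every library, and the root hair markers LRX1, PRP3 and RHS19 at most 0.239, 0.619 and 0.81. Of the 152 mitochondrial loci, 54 had 0 counts in all 12 libraries, which allows up to 0.0777 nuclear CPM of reads assigned to a locus (3 counts over the 12 libraries, counting error only). This limit is on assigned reads and does not bound the transcript level, since reads that also match the nuclear genome may be counted there. Of the 54 loci, 15 have an annotated nuclear copy. For the others a match to the nuclear genome was not examined by locus. Between 70 and 83 loci had a count in a library. The filter on low counts left 52 loci for testing, and these held 99.8% of the mitochondrial counts.

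The clearest feature of the mitochondrial genes was that several respiratory genes were nearly empty at their ATMG locus while an annotated copy on chromosome 2 held the counts. The RefSeq reference TAIR10.1 names 53 of the 152 loci as the match of a chromosome 2 gene or pseudogene, 24 of them with a product, 21 as of unknown function and 8 only through a pseudogene. The other 99 loci are given by identifier only. The coding sequence of AT2G07671 (chr2:3251856-3252113, minus strand), annotated as mitochondrial F0-ATPase subunit 9, is shown because this copy took the most counts. The capitals mark the 225 bases that are identical to the whole coding sequence of atp9 in the RefSeq mitochondrial genome, and the 33 bases before them are in lower case.
AT2G07671: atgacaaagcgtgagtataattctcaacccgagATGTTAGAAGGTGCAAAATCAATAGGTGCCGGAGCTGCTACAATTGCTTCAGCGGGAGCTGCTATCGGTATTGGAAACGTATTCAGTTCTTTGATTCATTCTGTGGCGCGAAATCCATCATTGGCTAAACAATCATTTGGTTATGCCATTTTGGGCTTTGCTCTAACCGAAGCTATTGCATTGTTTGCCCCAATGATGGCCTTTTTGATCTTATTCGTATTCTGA

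In the RefSeq reference the whole mitochondrial coding sequence thus occurs unchanged inside the nuclear gene, and a read within those capitals does not tell its 2 genomes apart. The reference is not the build of the files, and the mitochondrial sequence of that build was not examined. Over the RefSeq mitochondrial genome, 67.6% of the windows of 100 bases occurred without a mismatch in the nuclear chromosomes, and 99.9% of those windows had a match on chromosome 2. Of 38 named mitochondrial genes at least as long as the window, 15 had all their windows in the nucleus and 9 had none. Among the genes with none were cox1, nad5, nad9, atp4 and the ribosomal RNA genes rrn18 and rrn26. How reads that match both places were assigned is not given in the sources used here, and its part in the values of the pairs below was not tested.

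Subunit 9 forms the rotating ring of the membrane part of ATP synthase. Its ATMG locus, ATMG01080, had 53 counts over the 12 libraries and AT2G07671 had 205219. ATMG01080 held 0 to 8 counts per library, and AT2G07671 held 13031 to 22102. The share on the ATMG locus was 0.0258% of the pair (95% exact binomial interval 0.0193% to 0.0338%, counting error only). Apocytochrome b, the haem-carrying core of complex III, had 1 count at ATMG00220 and 28959 at AT2G07727. ATP synthase subunit 1, part of the soluble head of the enzyme, had 1969 counts at ATMG01190 and 16727 at AT2G07698, and the ATMG share ranged from 6.24% to 12.6% over the libraries. NADH dehydrogenase 1A, as the reference names a locus of complex I, had 62 counts at ATMG01275 and 5798 at AT2G07785.

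Other pairs were split or lay on the mitochondrial side. Cytochrome c oxidase subunit 3, a core subunit of complex IV, had 40608 counts at ATMG00730 and 16301 at AT2G07687, with an ATMG share of 68.4% to 73.2% in every library. ATMG01090, annotated as ATP synthase 9, had 5815 counts and its annotated match AT2G07777 had 5817, and the ATMG share was 45.2% to 55.1% over the libraries. ATPase subunit 6-1, part of the proton channel of ATP synthase, had all 4759 counts at ATMG00410 and 0 at AT2G07741. ATPase subunit 8 had 1970 counts at ATMG00480 and 3 at AT2G07707. NADH dehydrogenase 2B, also of complex I, had 4887 counts at ATMG01320 and 42 at AT2G07689. Of 37 pairs with at least 100 counts together, 20 had over 90% on the nuclear copy, 5 had over 90% on the ATMG locus and 12 lay between.

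Ribosomal protein genes fell on both sides. ATMG00210 (ribosomal protein L5), ATMG00290 (S4) and ATMG01270 (S7) had 0 counts, and their copies had 2312, 662 and 2186. ATMG00980, annotated as a protein of the S12/S23 family, had 137 counts and its copy AT2G07675 had 0. Of the 54 loci at 0, 15 have an annotated copy, and those copies held 40478 counts. The copies of all 46 pairs found in the count tables together held 344401 counts, 0.813% to 1.03% of the nuclear counts of a library. The ATMG loci themselves held 385910 counts.

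**Figure D1:**
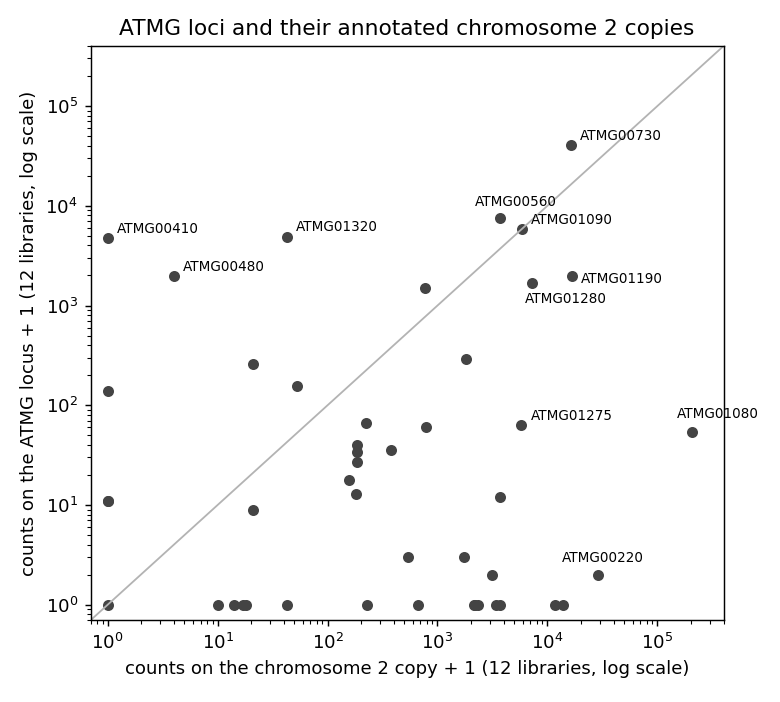
Counts summed over the 12 libraries on each ATMG locus (vertical axis) and on its annotated chromosome 2 copy (horizontal axis), both as counts + 1 on log scales, 1 point per pair, with the line of equal counts. ATMG01080 (53 against 205219 counts) and ATMG00220 (1 against 28959) lie far to the right of the line, ATMG01090 lies on it, and ATMG00410 (4759 against 0) lies at the left edge.

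Counts were concentrated on few loci. The 10 loci of largest mean count held 69.3% to 76.0% of the mitochondrial counts of a library. ATMG01360 was the largest at 15.02% ± 3.11 (SD, n = 12), followed by ATMG00730 (cytochrome c oxidase subunit 3) at 10.7% ± 1.83, ATMG00690 at 7.37% ± 1.16, ATMG00020 at 6.66% ± 3.48 and ATMG01390 at 6.11% ± 1.49. The next 5 were ATMG00060, ATMG01170, ATMG00160, ATMG00640 and ATMG00650, with means from 3.84% to 5.82%. From ATMG00690 to ATMG00640 neighbouring means lay within 1 SD of each other, and these shares are of counts, not corrected for length. The reference describes only ATMG00730 among these 10. ATMG00020 and ATMG01390 were listed as ribosomal RNA loci for an alternative total, a role that the reference does not give.

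ATMG01360 held 10.6% and 16.4% of the mitochondrial counts in the flu/ex1 libraries at 0 min, 17.4% and 12.2% at 30 min, and 21.1% and 16.7% at 60 min. In flu/ex1/ydl1 it held 12.1% and 12.2% at 0 min, 15.9% and 12.4% at 30 min, and 15.7% and 17.8% at 60 min. The highest of the 0 min libraries lay above the lowest of the 60 min libraries, so the times overlapped. The log2 difference in share between 60 and 0 min was 0.47 ± 0.21 (SE, adjusted p = 0.154, edgeR), which did not pass the threshold. ATMG00020 had the widest spread of the 10. It held 1.206% of the mitochondrial counts in replicate 1 of flu/ex1/ydl1 at 0 min and 1.199% in replicate 2 of flu/ex1/ydl1 at 60 min, against 4.39% to 13.6% in the other 10 libraries.

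**Figure D2:**
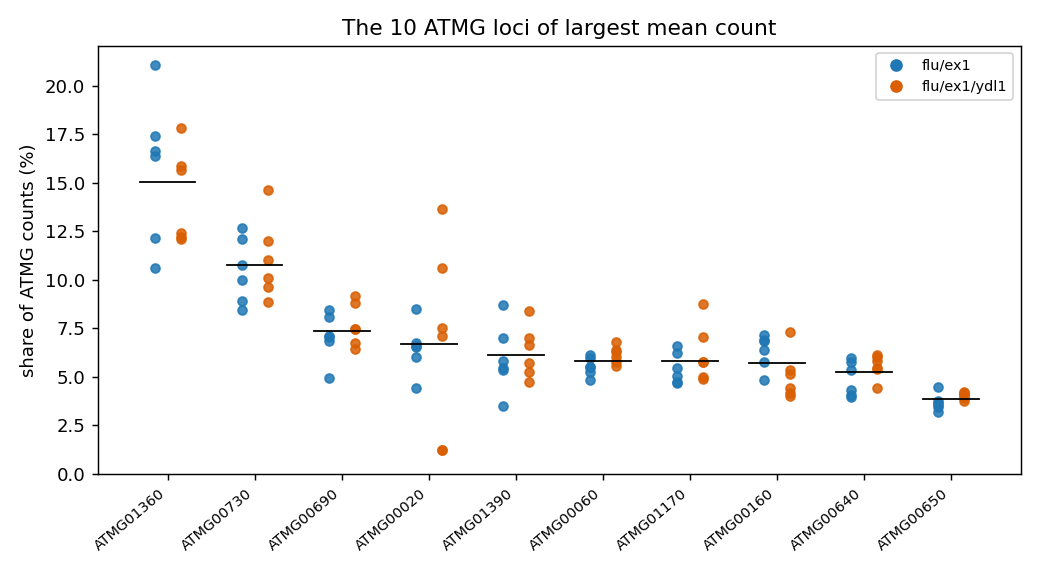
Share of each of the 10 largest ATMG loci in the ATMG counts of a library (vertical axis, percent), 1 point per library, 6 per genotype, with the mean of 12 as a bar. ATMG01360 is the largest at 15.02% on average, and 2 flu/ex1/ydl1 libraries stand low for ATMG00020 at about 1.2%.

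The 2 libraries of a group differed in a tested mitochondrial locus by a median of 0.25 to 0.56 on the log2 scale (0.5 nuclear CPM added), beside 0.31 to 0.68 over all loci tested. Between 2 and 12 of the 52 loci differed by more than 1 log2 unit within a group, with 12 in flu/ex1/ydl1 at 60 min.

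The summed counts on ATMG loci did not differ detectably between genotypes or times, and counts on the chromosome 2 copies are not in this sum. ATMG counts per nuclear counts were 1.10% and 1.23% in flu/ex1 at 0 min, 0.83% and 1.04% at 30 min, and 1.07% and 0.98% at 60 min. In flu/ex1/ydl1 they were 1.03% and 0.871% at 0 min, 1.10% and 0.896% at 30 min, and 0.917% and 0.986% at 60 min. The genotypes overlapped, with 1.04% ± 0.133 in flu/ex1 and 0.968% ± 0.089 in flu/ex1/ydl1 (SD, n = 6 each).

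The mean log2 difference between flu/ex1/ydl1 and flu/ex1 was -0.10 (p = 0.324, exact two-sided permutation test within light times over 216 arrangements, smallest possible p 0.00926). Its sign turned to 0.16 when the nuclear total was multiplied by its TMM factor (p = 0.222 by the same exact test). The nuclear total is not neutral here, since the loci AT2G41310 (a response regulator) and AT2G09250 (a long noncoding RNA) together held 4.41% to 22.8% of it. Their shares were close to each other in every library. They were 2.22% and 2.18% in replicate 1 of flu/ex1 at 60 min. In replicate 1 of flu/ex1/ydl1 at 60 min they were 11.5% and 11.3%. Whether the 2 loci share reads was not tested. Without these 2 loci the log2 difference was 0.00069 (p = 1 by the same exact test), an alternative chosen after seeing the data. For light time the mean log2 difference between 60 and 0 min was -0.09, and the 3 times did not differ past the threshold (p = 0.555, exact permutation test within genotypes over 8100 arrangements, smallest possible p 0.000741). The counts of the chromosome 2 copies were also moved to the mitochondrial total, again chosen after seeing the data. The log2 difference was then -0.06 between genotypes and -0.16 between 60 and 0 min (p = 0.38 and 0.133 by the same exact tests). In bulk RNA, fewer mitochondria or cells and less RNA in each cannot be told apart.

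**Figure D3:**
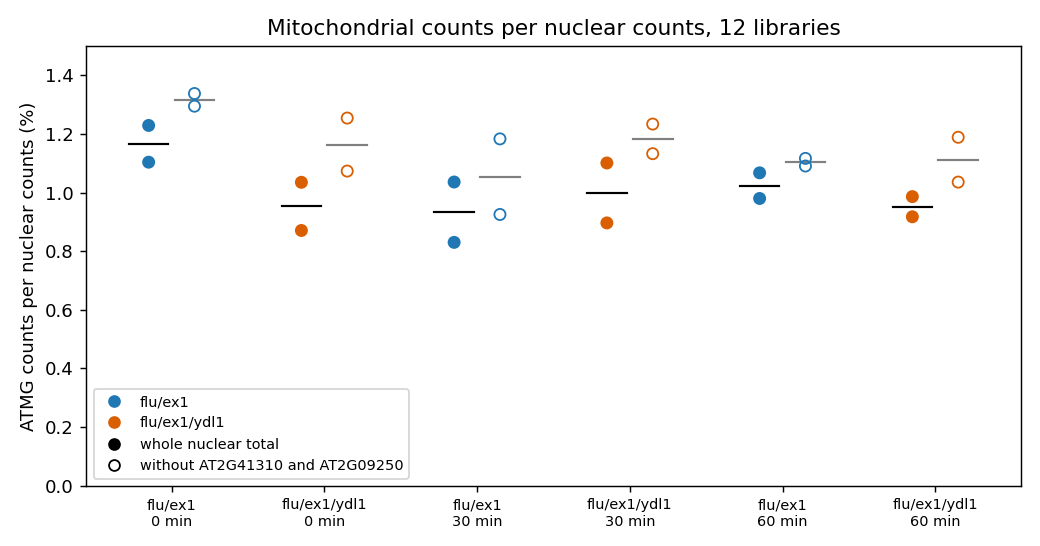
ATMG counts per nuclear counts (vertical axis, percent) in the 2 libraries of each genotype and light time, filled for the whole nuclear total and open without AT2G41310 and AT2G09250, with bars at the group means. The filled points lie between 0.83% and 1.23%, and the genotypes overlap.

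In the comparison of the genotypes over the 3 light times, 1 of 52 loci tested passed the threshold of an adjusted p of 0.05 (edgeR quasi-likelihood test, Benjamini-Hochberg over 17879 loci), where 8.5% of all loci tested did. This locus was ATMG00380, which the reference does not describe. It was at 3.58 and 4.62 nuclear CPM in flu/ex1 at 0 min, 5.64 and 3.71 at 30 min, and 6.44 and 5.70 at 60 min. In flu/ex1/ydl1 it was at 1.85 and 5.20 at 0 min, 0.785 and 0.245 at 30 min, and 0 and 1.33 at 60 min. All 4 flu/ex1/ydl1 libraries at 30 and 60 min lay below every flu/ex1 library, while at 0 min the genotypes overlapped. The counts behind it are small, 0 to 27 per library.

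ATMG00380 fell in flu/ex1/ydl1, with a log2 fold change of -2.12 ± 0.46 (SE, adjusted p = 0.00503, edgeR). With each library left out in turn the change ranged from -3.58, without replicate 2 of flu/ex1/ydl1 at 60 min, to -1.87, without replicate 1 of flu/ex1/ydl1 at 60 min. Relative to the mitochondrial total the change was -2.01 ± 0.47 (adjusted p = 0.0135, edgeR), with a range of -3.49 to -1.78 for the same 2 libraries left out, and it was again the 1 locus called, where 5.79% of all loci were. On the mitochondrial scale the adjusted p was 0.0518 without replicate 2 of flu/ex1 at 30 min and 0.0711 without replicate 3 of flu/ex1/ydl1 at 30 min. With light times from the sample labels it was 0.059 on the nuclear and 0.101 on the mitochondrial scale. The scale by nuclear total shifted the median of all loci tested by -0.26, and the median of the 52 mitochondrial loci was -0.22 (TMM over nuclear loci gave -0.01 and 0.04). By the naming rule no other mitochondrial locus is named for this comparison. On the nuclear scale 7 loci had an unadjusted p under 0.05, ATMG00380 included, all lower in flu/ex1/ydl1. That is 13.5% of the 52, beside 28.3% of all loci tested. Without replicate 2 of flu/ex1/ydl1 at 60 min the number called was 8 on the nuclear and 4 on the mitochondrial scale, and without replicate 1 of flu/ex1/ydl1 at 60 min it was 3 on the nuclear scale. It was 2 on the nuclear scale without replicate 2 of flu/ex1 at 0 min, replicate 3 of flu/ex1/ydl1 at 0 min or replicate 3 of flu/ex1/ydl1 at 30 min, and 0 on the mitochondrial scale without replicate 2 of flu/ex1 at 30 min. With the form of the file name as a block the number called on the nuclear scale was 5, and with the counts of the copies added to their locus it was 4, all lower in flu/ex1/ydl1. The share of all loci called in each of these alternative fits is not given here, so these counts do not show a change particular to mitochondrial loci.

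In the comparison of 60 with 0 min over both genotypes, 1 of 52 loci passed on the nuclear scale, where 10.8% of all loci did. This was ATMG01410, also without a description in the reference. It was at 7.56 and 5.68 nuclear CPM in flu/ex1 at 0 min, 4.07 and 5.26 at 30 min, and 3.58 and 7.13 at 60 min. In flu/ex1/ydl1 it was at 13.7 and 5.20 at 0 min, 3.14 and 1.47 at 30 min, and 1.62 and 1.86 at 60 min. In flu/ex1 the 0 and 60 min libraries overlapped, and in flu/ex1/ydl1 they did not.

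ATMG01410 fell by 1.35 ± 0.41 on the log2 scale (SE, adjusted p = 0.0356, edgeR) from 0 to 60 min. Without replicate 1 of flu/ex1/ydl1 at 0 min, its highest library, the change was -0.92 and the adjusted p 0.281 (edgeR). The adjusted p was also 0.115 without replicate 2 of flu/ex1 at 0 min, 0.161 without replicate 1 of flu/ex1 at 60 min, 0.051 without replicate 1 of flu/ex1/ydl1 at 60 min and 0.0819 without replicate 2 of flu/ex1/ydl1 at 60 min. TMM scaling and DESeq2 each called 3 loci, adding ATMG00040 and ATMG01090, all 3 lower at 60 min. Without replicate 3 of flu/ex1 at 0 min the number called was 3, of which 2 were higher, and without replicate 1 of flu/ex1/ydl1 at 60 min it was 4, of which 3 were higher. The shares of all loci called under these alternatives are not given here. The median of the 52 loci was -0.14, beside 0.14 over all loci tested.

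On the mitochondrial scale, 2 of 52 loci passed between 60 and 0 min, where 13.1% of all loci did. On this scale nuclear and plastid loci were also divided by the ATMG total, and the median of all loci tested was 0.22. Their share called is thus not a like background for shares of mitochondrial counts. The adjustment of p-values ran over these loci too. ATMG00520 held 0.0541% and 0.101% of the mitochondrial counts in flu/ex1 at 0 min, 0.0792% and 0.0597% at 30 min, and 0.186% and 0.104% at 60 min. In flu/ex1/ydl1 it held 0.0856% and 0.0757% at 0 min, 0.128% and 0.109% at 30 min, and 0.141% and 0.164% at 60 min. All 4 libraries at 60 min were above all 4 at 0 min, and the log2 difference was 0.90 ± 0.28 (SE, adjusted p = 0.0427, edgeR). The other locus was ATMG01410 again at -1.24 ± 0.39 (adjusted p = 0.0453, edgeR). Both calls were near the threshold, and for the alternatives that follow the share of all loci called is not given here. DESeq2 called 0 loci here, with adjusted p of 0.064 for ATMG00520 and 0.0691 for ATMG01410. ATMG00520 kept its call when 5 of the 12 libraries were left out in turn and ATMG01410 when 3 were. The number called was 4 without replicate 3 of flu/ex1 at 0 min and 6 without replicate 1 of flu/ex1/ydl1 at 60 min. It was 0 without replicate 2 of flu/ex1 at 0 min, replicate 1 of flu/ex1 at 60 min, or any flu/ex1/ydl1 library other than 0 min replicate 3 and 60 min replicate 1.

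**Figure D4:**
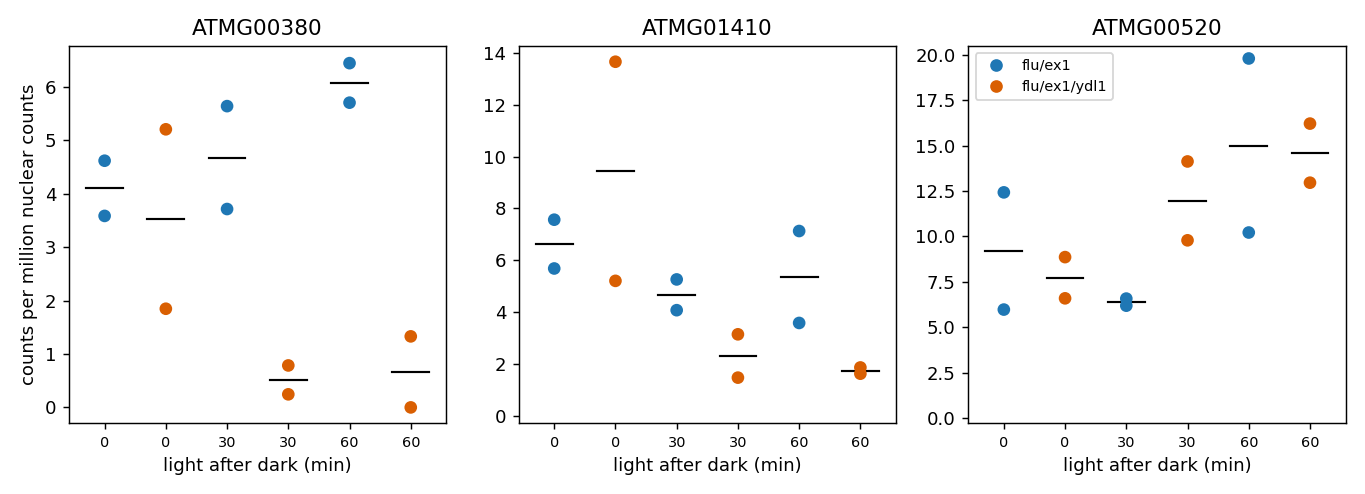
Counts per 1000000 nuclear counts, or nuclear CPM (vertical axes), of the 3 ATMG loci that passed a test, by light time (horizontal axes) and genotype (colour), 1 point per library with bars at the group means. ATMG00380 is at most 1.33 in flu/ex1/ydl1 at 30 and 60 min, against at least 3.58 in flu/ex1. For ATMG01410 a single flu/ex1/ydl1 library at 0 min reaches 13.7. ATMG00520 passed only on the mitochondrial scale. On the scale plotted its log2 change between 60 and 0 min was 0.81 (adjusted p = 0.105, edgeR).

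Few or no mitochondrial loci passed the remaining tests (edgeR). For DESeq2 the share of all loci called in these tests is not given here. Between 30 and 0 min 0 of 52 passed on the nuclear scale, where 4.03% of all loci did, and 0 on the mitochondrial scale, where 5.01% did. At an unadjusted p under 0.05 there were 7 and 3, beside 11.8% and 13.9% of all loci, and DESeq2 called 0 on both. Between 60 and 30 min 0 passed on either scale, where 0.33% of all loci did on the nuclear and 0.241% on the mitochondrial scale. There, 2 loci had an unadjusted p under 0.05 on each scale and DESeq2 called 0. Of all loci, 7.06% had such a p on the nuclear and 7.01% on the mitochondrial scale.

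Within flu/ex1 alone 0 of 52 loci passed between 60 and 0 min, where 0.878% of all loci did. There, 2 had an unadjusted p under 0.05, where 10.1% of all loci did, and DESeq2 called 0. Within flu/ex1/ydl1 alone 1 of 52 passed, where 9.92% of all loci did. This was ATMG01410 at -2.39 ± 0.62 (SE, adjusted p = 0.011, edgeR). Without replicate 1 of flu/ex1/ydl1 at 0 min its change was -1.55 with an adjusted p of 0.327, and without replicate 2 of flu/ex1/ydl1 at 60 min it was -2.50 with an adjusted p of 0.07 (edgeR). How far the number called moved with a library left out is given below, with the dependence on the processing. The test of the difference between the genotypes in this change called 0 of 52 loci, where 2.23% of all loci were called. DESeq2 also called 0 of them, and 2 had an unadjusted p under 0.05, where 9% of all loci did. These 2 were ATMG00380 at -2.70 ± 1.05 (adjusted p = 0.292, edgeR) and ATMG01410 at -2.09 ± 0.83 (adjusted p = 0.314, edgeR), and a difference between the genotypes in the response to light was not shown for them.

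**Figure D5:**
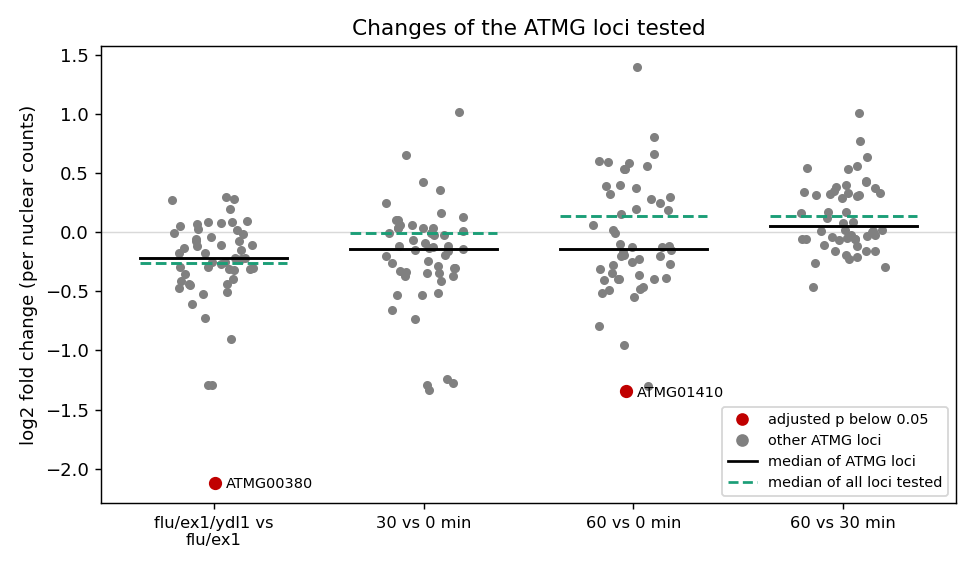
Log2 fold changes per nuclear counts (vertical axis) of the 52 ATMG loci tested in 4 comparisons (horizontal axis), 1 point per locus, red where the adjusted p is below 0.05, with the median of these loci as a solid line and of all loci tested as a dashed line. ATMG00380 lies lowest between genotypes at -2.12 and ATMG01410 lowest between 60 and 0 min at -1.35. At 60 against 0 min the ATMG median is -0.14 and that of all loci 0.14.

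Roles were given only to loci that the reference describes through a chromosome 2 gene. Mitochondrial genes that it does not describe there, such as cox1, nad5, nad9 and atp4, are in no role, so no role is complete. By role, the annotated loci of ATP synthase, complexes I and IV, cytochrome c maturation and the ribosome gave 0 calls between genotypes and between 60 and 0 min on the nuclear scale (edgeR). Between genotypes 0 of them had an unadjusted p under 0.05, where 28.3% of all loci did, and DESeq2 called 0. Between 60 and 0 min 2 had an unadjusted p under 0.05, where 23.3% of all loci did, and DESeq2 called 1. DESeq2's share over all loci is not given here. These roles held 11 loci tested, and the shares called among all loci were 8.5% and 10.8%, so counts of 0 say little about the roles. Of 5 loci annotated as ATP synthase subunits 4 were tested, with log2 fold changes from -0.44 to 0.28 between genotypes and from -0.55 to 0.60 between 60 and 0 min. The lowest of the latter was ATMG01090 at -0.55 ± 0.24 (SE, adjusted p = 0.154, edgeR), which DESeq2 called. The 2 annotated complex IV loci, ATMG00730 and ATMG01280, were at -0.48 and -0.40 between 60 and 0 min. Of 3 annotated complex I loci 1 had enough counts to be tested, ATMG01320, at -0.15 between genotypes. No annotated complex III locus could be tested, since ATMG00220 had 1 count in all and ATMG00590 had 0. Of 3 loci for cytochrome c maturation, which attaches haem to cytochrome c, 2 were tested and lay at -0.43 and -0.18 between genotypes. The 2 tested of 5 ribosomal protein or related loci lay at 0.25 and 0.40 between 60 and 0 min. The chromosome 2 copies of the emptier loci were tested in the same fit, and their reads could come from either genome. AT2G07671 was at 0.09 ± 0.16 between genotypes and -0.33 ± 0.20 between 60 and 0 min (SE, adjusted p = 0.728 and 0.335, edgeR). AT2G07727, the apocytochrome b copy, was at -0.23 ± 0.19 and 0.22 ± 0.23 (adjusted p = 0.417 and 0.612, edgeR).

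Of 31 copies tested, 3 passed between genotypes, all lower in flu/ex1/ydl1, and 1 passed between 60 and 0 min. The shares called among all loci tested were 8.5% and 10.8%. These shares are those of edgeR. DESeq2, whose size factors over nuclear loci replace the nuclear total, called 0 copies between genotypes. Between 60 and 0 min it called 1 higher and 3 lower. The share of all loci that DESeq2 called is not given here, so its counts are not set beside a background. AT2G07739, annotated as a Ycf1 protein and matched to ATMG00370, was at 53.5 to 77.04 nuclear CPM in flu/ex1. In flu/ex1/ydl1 it was at 4.43 and 52.4 at 0 min, 33.0 and 30.3 at 30 min, and 32.8 and 2.92 at 60 min, so the genotypes did not overlap. Its log2 fold change was -1.35 ± 0.39 (SE, adjusted p = 0.035, edgeR). The other 2 were AT2G07678 at -0.82 ± 0.23 and AT2G07692 at -0.73 ± 0.23 (adjusted p = 0.0318 and 0.0457, edgeR), both annotated as unknown proteins. AT2G07692 was also the copy called between 60 and 0 min, at -0.92 ± 0.28 (adjusted p = 0.0303, edgeR). Its change was -0.29 in flu/ex1 (adjusted p = 0.871, edgeR) and -1.56 in flu/ex1/ydl1 (adjusted p = 0.0113, edgeR), and the test of the difference gave -1.27 (adjusted p = 0.422, edgeR).

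Among all loci tested 8.5% were called between genotypes and 10.8% between 60 and 0 min. These shares are those of edgeR, and the share that DESeq2 called is not given here. With so few nuclear genes on the lists of the same pathways, the numbers of calls below say little about the lists. Of 19 nuclear genes for respiratory chain and ATP synthase subunits, 1 fell in flu/ex1/ydl1, 0 rose and the list's median was -0.40, beside -0.26 over all loci tested. The 1 that fell was GAMMA CA2 (AT1G47260), a carbonic anhydrase-like subunit of plant complex I, at -0.86 ± 0.25 (SE, adjusted p = 0.0328, edgeR). Of these 19, 9 had an unadjusted p under 0.05, where 28.3% of all loci did. Between 60 and 0 min 0 of 19 passed, 3 had an unadjusted p under 0.05 (23.3% of all loci did) and DESeq2 called 2 as higher, and the 2 smallest p-values were those of CYTC-2 (AT4G10040), a cytochrome c, at 0.72 ± 0.24 and EMB1467 (AT5G37510), a complex I subunit, at 0.73 ± 0.25 (adjusted p = 0.0539 and 0.063, edgeR). Of 22 nuclear genes for mitochondrial transcription, splicing, editing and RNA decay 16 were tested, and 0 passed in either comparison (0 by DESeq2). At an unadjusted p under 0.05 there were 0 between genotypes and 1 between 60 and 0 min, beside 28.3% and 23.3% of all loci. The medians were -0.10 between genotypes and 0.13 between 60 and 0 min.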

How the data were processed

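Per the labels' protocols, Trizol was used to extract total RNA for Illumina TruSeq libraries. The authors deposited unnormalised counts of reads at each locus, and the submitters' processing notes name Trimmomatic, FastQC, TopHat2 2.1.1, featureCounts and the build TAIR10. The strand setting and the handling of reads with several matches are not given in the sources used here. Each library's counts were scaled by the total of its nuclear loci or of its ATMG loci. With the ATMG total, nuclear and plastid loci were scaled by it too and entered the adjustment. Loci kept by filterByExpr (minimum count 10, minimum total count 15) were fitted together in 6 groups of genotype and file-name light time by the quasi-likelihood method of edgeR 4.0.16 (R 4.3.3), leaving 6 residual degrees of freedom, and the Benjamini-Hochberg adjustment over all 17879 loci was used with a threshold of 0.05. Each standard error is the log2 fold change divided by the root of its F value. The fit was tested on simulated data. Mitochondrial per nuclear counts were compared by exact permutation tests in Python 3.11.15.

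Names of ATMG loci and copies come from notes on chromosome 2 genes of the RefSeq reference TAIR10.1, which is not the files' build, so coordinates are those of TAIR10.1. Named were the members past the threshold, the 10 of largest mean count, the annotated respiratory and ribosomal members by group, and up to 4 genes of each nuclear list with the smallest p. Ribosomal RNA loci are not named in that reference, and those left out of an alternative total were taken from a separate list. Single copies were named after their values were seen. The members and gene lists were chosen with earlier results of these data known. Alternatives were TMM, DESeq2 1.42.0, other totals, no filter, label light times, a block by replicate number or by the form of the file name, and each library left out.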

Additional observations from a re-analysis of the deposited data

Results flagged for a closer look

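Of 14 quantities checked in the 6 libraries of each genotype, 28 groups in all, 2 had a library far from the others by Dixon's test, and chance gives about 1 in 20. ATMG00380 was at 5.203 nuclear CPM in replicate 3 of flu/ex1/ydl1 at 0 min, the highest of its genotype. ATMG01410 was at 13.66 nuclear CPM in replicate 1 of flu/ex1/ydl1 at 0 min, also the highest of its genotype. Each group mixes 3 light times, and whether time or the library sets these values apart was not tested.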

How the results depend on the processing

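Small counts and 2 libraries per group limit the tests, and light times from the sample labels gave 0 calls in every comparison. The counts of mitochondrial loci called moved as follows, and the causes were not tested. The share of all loci called in each alternative is not given here, so these counts do not show a change particular to mitochondrial loci. Between genotypes on the nuclear scale (1 locus) the count was 2 with no filter on low counts, 0 with label times, 5 with the form of the file name as a block, 4 with the counts of chromosome 2 copies added to their locus, an alternative chosen after seeing the data, and 1 to 8 with a library left out. On the mitochondrial scale (1) it was 2, 0 and 2 for no filter, label times and added copies, and 0 to 4 with a library left out. Between 30 and 0 min on the nuclear scale (0) it was 1 with no filter and 0 to 1 with a library left out. Between 60 and 0 min on the nuclear scale (1) it was 3 with either TMM scaling or DESeq2, 0 with label times, 2 with the file-name block or added copies, and 0 to 4 with a library left out. Within flu/ex1/ydl1 (1) it was 0 with label times, 2 with added copies and 0 to 5 with a library left out. Between 60 and 0 min on the mitochondrial scale (2) it was 1 without the locus of largest mean count, 0 with DESeq2 or label times, 4 with added copies and 0 to 6 with a library left out. For mitochondrial per nuclear counts, the log2 difference between genotypes turned to 0.16 with the TMM factor and 0.00069 without the 2 largest nuclear loci, and that between 60 and 0 min to 0.0020 with the total of all counts. With a library left out they ranged from -0.16 to -0.05 and from -0.18 to -0.02.

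With the replicate number as a block, the count between 60 and 0 min on the mitochondrial scale was 1 (ATMG00090 in place of the 2 others), and it stayed at 1 between genotypes on both scales and at 1 between 60 and 0 min on the nuclear scale, over both genotypes and within flu/ex1/ydl1, with 0 in the other comparisons. For this block the share of all loci called is not given here. Both calls without the block, ATMG00520 and ATMG01410, then had adjusted p of 0.0835 and 0.0529 (edgeR). Correlations of the deviations of same-numbered libraries ranged from -0.24 to 0.28. Within flu/ex1/ydl1 they were 0.13 to 0.21 and within flu/ex1 -0.24 to 0.11, so the numbers were not taken to pair the samples.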

Other observations

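ATMG00020, ATMG00030 and the copy AT2G07739 were each lowest in the same 2 libraries, replicate 1 at 0 min and replicate 2 at 60 min of flu/ex1/ydl1. ATMG00020 was at 125 and 118 nuclear CPM there and at 364 to 1222 in the other 10 libraries. ATMG00030 was at 7.75 and 9.83 against 30.7 to 73.4, and AT2G07739 at 4.43 and 2.92 against 30.3 to 77.04. These loci were chosen after their values were seen. The 2 libraries share a genotype and the form of their file names with replicate 1 of flu/ex1/ydl1 at 30 min, which was not low, at 825, 34.9 and 33.0 nuclear CPM.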
